A study of Capra hircus with 24 samples.

Results

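The transcripts described here are those of the haemoglobin beta chain (HBB, cattle transcript NM_173917) and alpha chain (HBA, cattle transcript NM_001077422). They were chosen as every non-control probe whose transcript name on the array equals one of these accessions, which gave 1 probe each, A_73_120596 for HBB and A_73_115494 for HBA, 2 of 26748 transcript names and 2 of 43653 probes in all. Both belonged to the 27411 probes tested, which needed a sample signal called well above background on each of the 4 arrays of some group. RNA came from 8 healthy female goats in lactation number 3, of which 4 were of the breed Polish White Improved (PWI) and 4 were Polish Fawn Improved goats (PFI). The sources were somatic cells that milk contains (MSC), nucleated blood cells (PNCB) and milk fat globules (MFG, secreted droplets with some cytoplasm of the epithelial cell around them). Every goat gave all 3, so that 24 arrays form 6 groups of 4. Every array set the sample, in Cy5, against the same Cy3 reference, pooled RNA of nucleated blood cells of 7 goats in lactation number 4 (4 PWI and 3 PFI), taken once lactation had ended. Per the labels' protocols, venous blood went into a red cell lysis buffer before its RNA was protected, while both milk sources went into the reagent of a lipid tissue kit, so the effects of kit and source cannot be told apart where milk is set against blood. The study is set up to compare the 3 sources and both breeds.

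Haemoglobin, the oxygen carrier of red cells, is built of alpha and beta chains, which precursors of red cells make in balance from separate gene clusters. Mammalian red cells lose their nucleus, but young ones keep globin mRNA for some time after they enter the blood. Globin mRNA can therefore fill much of a whole blood RNA sample, and red cells are often lysed before white cell RNA is prepared. Milk holds leukocytes and shed epithelial cells. In bulk RNA such as this, fewer cells of a type and less RNA per cell cannot be told apart. Goats carry several closely related beta-type globin genes, of which the goat gene table (assembly ARS1.2) names HBBC. Each probe was designed on a cattle transcript, with bosTau6 (UMD 3.1) as the build in the file headers, so which goat transcript each one bound is uncertain. That the HBA probe reads a globin in milk RNA, and not another transcript, was not tested. Probe positions and sequences were not used here.

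Of the 24 arrays, 3 stood apart by the slope of their spike-in controls, which lay between 0.489 and 0.645 against 0.758 to 0.887 on the other arrays. They are the PNCB arrays of PWI goats 3 and 4 and the MFG array of PWI goat 2. On the MFG array of PWI goat 2, 84.6% of probes were well above background. The MFG array of PWI goat 4 had 75.3%, against 44.1% to 51.5% on the remaining MFG arrays. Its slope of 0.758 was the lowest of the arrays not set apart. It therefore stays in where arrays of low slope are left out. The PNCB array of PWI goat 4 had an outlier flag on the local Cy3 background of both globin spots, which were left out, so PNCB values rest on 7 goats. Its Cy3 background at the HBB spot was 1649, against 27.5 to 33 on the other PNCB arrays, and its net Cy3 signal there was 13641, against 327 to 545. Its net Cy3 signal summed over the array was 26880000, against 11390000 to 14110000 on the other PNCB arrays, and 21.1% of its spots were flagged. On the PNCB array of PWI goat 3, which was kept, 8.43% were flagged, against 1.84% to 3.04% on the remaining PNCB arrays. MFG arrays were scanned on another day than all other arrays, and each group lay on 1 slide. Scan day and source therefore cannot be told apart where MFG is set against MSC or PNCB. No slide held more than 1 source.

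HBB was lower in both milk sources than in the 7 blood samples kept. In PNCB the log2 ratio of the HBB probe to the blood reference was 0.31 in PWI goat 1, -1.24 in PWI goat 2 and 0.93 in PWI goat 3. It was -1.41, -0.83 and -1.54 in PFI goats 1, 3 and 4, and 2.03 in PFI goat 2, the highest value of all arrays. Blood samples therefore lay on both sides of the reference pool, with a mean of -0.25 ± 1.37 (SD, n = 7). In MSC the ratio was -2.60, -2.65, -2.84 and -2.46 in PWI goats 1 to 4. In PFI goats 1 to 4 it was -2.77, -2.78, -2.46 and -2.73. All 8 MSC samples lay below the reference, with a mean of -2.66 ± 0.14 (SD, n = 8). That SD holds for ratios made with an offset of 50 added to every signal, which weighs most on dim spots. In the authors' deposited table the same samples ran from -4.38 to -3.26. In MFG the ratio was -2.86, -1.67, -2.88 and -2.48 in PWI goats 1 to 4. In PFI goats 1 to 4 it was -2.42, -2.60, -3.22 and -2.67. The mean was -2.60 ± 0.46 (SD, n = 8), and PWI goat 2, on the array with the lowest spike-in slope, stood above the other 7 MFG samples. The lowest PNCB ratio lay just above the highest milk ratio, so these ratios did not overlap over the 7 blood samples kept. Every milk ratio likewise lay below every blood ratio for 10.1% of tested probes with a value on the same 23 arrays. Probes with every milk ratio above blood were not counted. In the authors' deposited table the HBB ratios did overlap, since PNCB of the same 7 goats reached down to -1.91 and MFG of PWI goat 2 stood at -1.48. PWI goat 4, left out of PNCB here, had a deposited ratio of -6.43, below all milk samples.

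**Figure D1:**
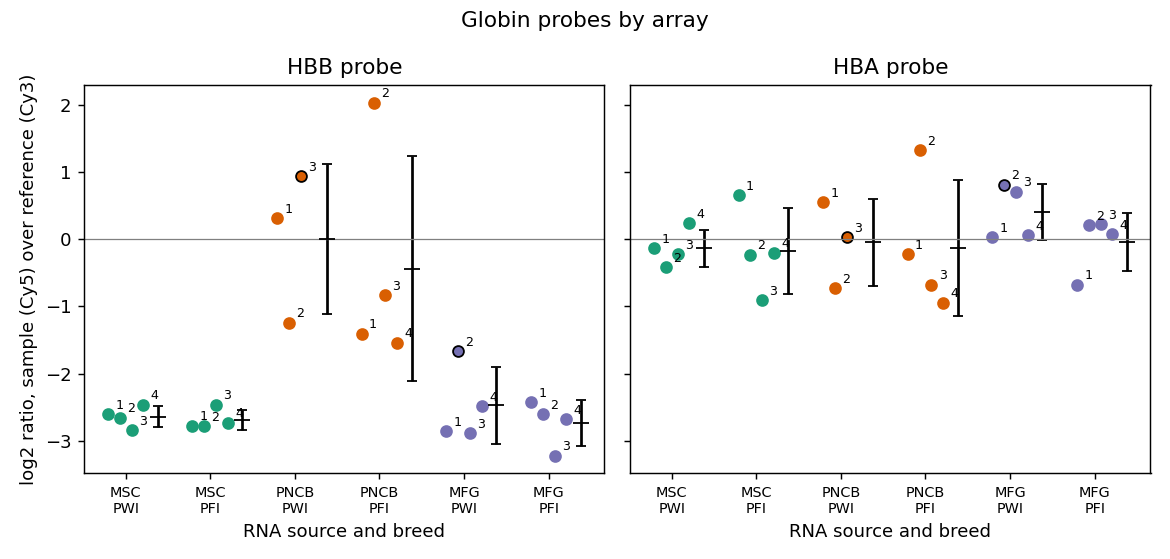
Log2 ratio of sample (Cy5) over blood reference (Cy3) for the HBB probe (left) and the HBA probe (right) on the 23 arrays with a value, by RNA source and breed; numbers are goats, bars show the group mean and SD, and points with a black edge are arrays of low spike-in slope. HBB lies between -1.54 and 2.03 in blood and between -3.22 and -1.67 in milk, while HBA overlaps in all sources.

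HBB was 5.44-fold lower in MSC than in PNCB (log2 difference -2.44, SE 0.40, limma adjusted p = 2.65e-05), and lower in 7 of 7 goats measured in both. In MFG it was 5.21-fold lower than in PNCB (log2 difference -2.38, SE 0.40, limma adjusted p = 2.1e-05), again in 7 of 7 goats. The exact paired sign-flip test over those goats gave two-sided p = 0.0156 for each, the smallest that 7 goats allow, and 0.0352 after adjustment over 9 such tests. The limma fit gave all groups 1 shared spread, while the SD of HBB was 1.37 in PNCB, 0.14 in MSC and 0.46 in MFG. Over the 7 paired goats the SE of the mean difference was 0.54 for MSC and 0.60 for MFG, larger than the 0.40 of the fit. Calls were common in these comparisons: 27.1% of tested probes were called lower in MSC and 38.4% in MFG, and 49.6% and 63.9% in either direction. In size, 0.741% of tested probes had a more negative difference than HBB in MSC and 3.04% in MFG. The calls depended on the treatment of flagged spots. With all flagged spots kept, that of PWI goat 4 among them, the log2 differences were -1.31 (adjusted p = 0.171) for MSC and -1.08 (adjusted p = 0.242) for MFG. With flagged spots in the background fit but left out after it they were -2.08 (adjusted p = 0.00105) and -1.85 (adjusted p = 0.00215). With the 3 low-slope arrays left out they were -2.21 (adjusted p = 0.000157) and -2.28 (adjusted p = 0.000101). HBB did not pass the test between the milk sources (MFG less MSC 0.06, 95% interval -0.73 to 0.86, adjusted p = 0.9255), where 34.8% of probes passed.

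The size of the HBB difference changed with the background step. The net Cy5 signal of the HBB spot, its median intensity less that of its local background, was 365 to 6660 in PNCB. In MSC it was 26.5 to 121, and in MFG 17 to 77.5 except in PWI goat 2, at 429.5. In this channel blood and milk did overlap, since MFG of PWI goat 2 lay above the lowest PNCB samples, and the PNCB spot of PWI goat 4 that was left out read 225. Local Cy5 background at these milk spots was 34.5 to 42, yet the scanner software called HBB well above background in both channels on all 24 arrays. An offset of 50 was added to every signal, which draws ratios of such dim spots toward 0. With an offset of 0 the log2 differences were -3.235 in MSC and -3.26 in MFG, and both passed (adjusted p = 1.15e-05 and 5.68e-06). The deposited log ratios of HBB reached from -5.01 to -1.48 in milk, and the authors' deposited table gave differences from blood of -2.78 (limma adjusted p = 0.00522) for MSC and -2.95 (adjusted p = 0.00225) for MFG with the flagged spot included.

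The HBA probe did not follow this pattern. In PNCB its log2 ratio was 0.55, -0.73 and 0.03 in PWI goats 1 to 3. In PFI goats 1 to 4 it was -0.22, 1.32, -0.68 and -0.94. The mean in blood was -0.10 ± 0.81 (SD, n = 7), with PFI goat 2 again highest and PFI goat 4 again lowest. In MSC the ratio was -0.14, -0.41, -0.22 and 0.23 in PWI goats 1 to 4. In PFI goats 1 to 4 it was 0.65, -0.23, -0.91 and -0.20. MSC samples thus lay within the range of blood, with a mean of -0.15 ± 0.46 (SD, n = 8). In MFG the ratio was 0.03, 0.81, 0.71 and 0.06 in PWI goats 1 to 4. In PFI goats 1 to 4 it was -0.68, 0.21, 0.22 and 0.08. The MFG mean was 0.18 ± 0.46 (SD, n = 8), and 7 of the 8 fat globule samples were above the reference.

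HBA passed no test between sources. The intervals here use the same shared spread, while the SD of HBA was 0.81 in PNCB and 0.46 in each milk source. Over paired goats the SE was 0.32 for MSC less PNCB and 0.37 for MFG less PNCB, against 0.29 in the fit. MSC less PNCB was -0.06 on the log2 scale (95% interval -0.67 to 0.54, limma adjusted p = 0.876), an interval from 0.631-fold to 1.45-fold. For MFG less PNCB it was 0.27 (95% interval -0.33 to 0.87, adjusted p = 0.43). Between the milk sources, MFG less MSC was 0.33 (95% interval -0.25 to 0.91, adjusted p = 0.393), and 0.58 without PFI goat 1 (adjusted p = 0.138). Direction in MFG depended on the scaling: centring each array on its median gave -1.27 against PNCB (adjusted p = 0.00102), where the median of all tested probes itself lay at -0.82, and HBA lay 0.45 below it. Against MSC median centring gave -0.78 (adjusted p = 0.03), where the median of all tested probes lay at -0.61 and HBA less that median was -0.17. The Cy5 channel alone gave 0.90 against PNCB (adjusted p = 0.0719) and, in the other direction, 1.15 against MSC (adjusted p = 0.0275). For HBB the direction against blood was the same under median centring (-3.37 in MSC and -4.37 in MFG) and in Cy5 alone (-2.68 and -2.88).

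Both globins were then set against each other in each goat. The change of HBB from blood to MSC was 2.33 log2 units more negative than that of HBA (SD 0.78, n = 7), in 7 of 7 goats (exact two-sided p = 0.0156, adjusted p = 0.0352). From blood to MFG the gap was -2.66 (SD 1.27, n = 7), also in 7 of 7 goats (exact two-sided p = 0.0156, adjusted p = 0.0352). With flagged spots kept these gaps were -1.38 (exact p = 0.102) and -1.52 (exact p = 0.0703), and leaving out the arrays of low spike-in slope gave an MFG gap of -2.43 (exact p = 0.0625, the smallest that 5 goats allow). Between MFG and MSC the gap was -0.27 (SD 1.01, n = 8, exact p = 0.445), and it was -0.54 in the authors' deposited table (exact p = 0.32) and -1.35 in the Cy5 channel alone (exact p = 0.0547).

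The single channels add the levels behind the HBA ratios. Net Cy5 signal of the HBA spot was 4594 to 24050 in PNCB, 3650 to 6848 in MSC and 7032 to 10719 in MFG except in PFI goat 1. HBB read 121 or less on 15 of 16 milk arrays, and since brightness differs between probes these levels of HBA and HBB cannot be set against each other. In Cy3, which held the same pool on every array, HBA read 1448.5 to 2222 on MSC arrays and 4731.5 to 5591 on the MFG arrays other than PFI goat 1. For HBB, Cy3 read 334.5 to 501.5 on MSC arrays and 716 to 908.5 on MFG arrays. The Cy3 channel as a whole was brighter on MFG arrays, which were scanned on another day, and the cause was not tested. Its summed net signal was 25940000 to 33250000 there, against 12190000 to 15310000 on MSC arrays. After quantile normalization of Cy3 alone HBA remained 0.40 higher on MFG than on MSC arrays (log2 scale, limma adjusted p = 0.0278). For HBB that value was 0.14 (adjusted p = 0.104), which did not pass. The reference difference of HBA lies beside the HBA ratios in MFG, and its part in them was not tested. Of all tested probes 39.5% differed in Cy3 in that comparison. Between MSC and PNCB arrays Cy3 differed by 0.01 for HBB and -0.12 for HBA, neither of which passed.

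**Figure D2:**
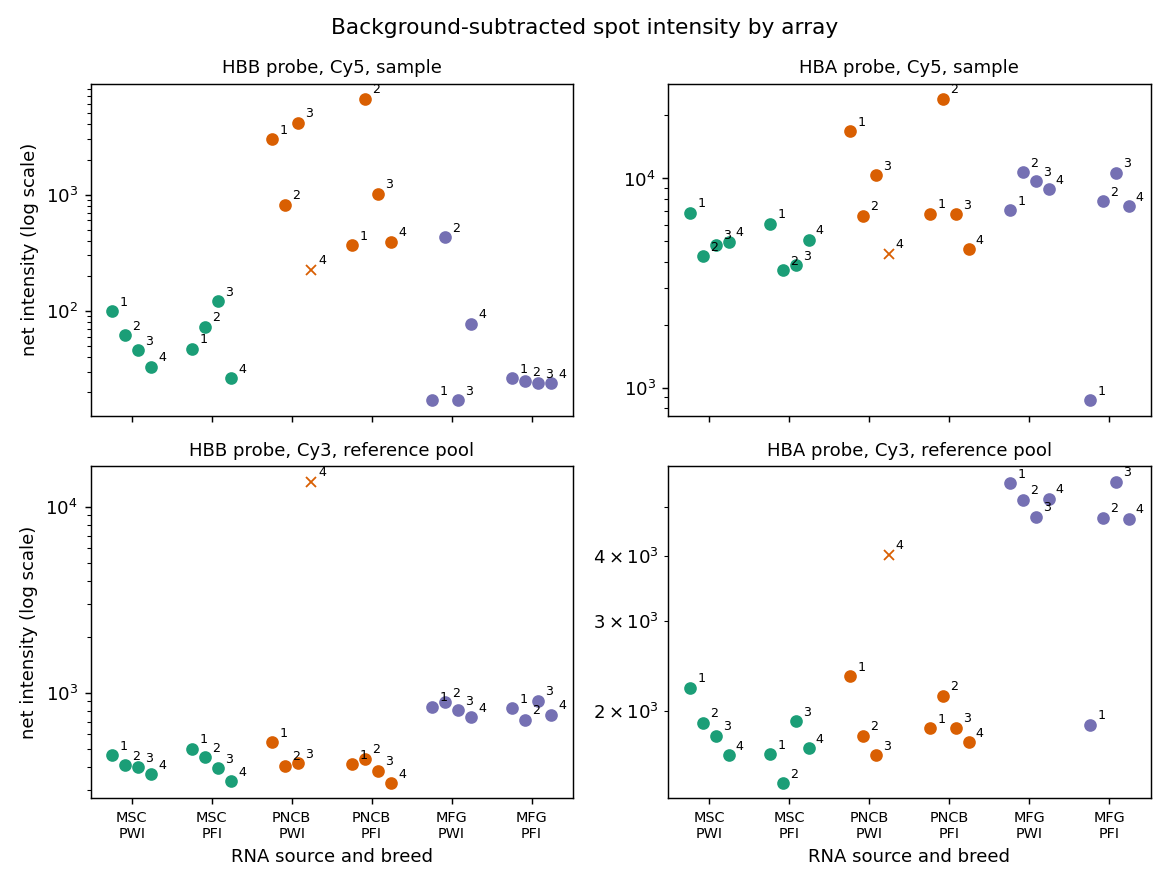
Net intensity (spot less local background, log scale) of both globin probes in the sample channel Cy5 (top) and the reference channel Cy3 (bottom) on every array; numbers are goats and crosses mark spots left out for an outlier flag. Among spots kept, HBB in Cy5 drops from 365 to 6660 in blood to 17 to 121 on 15 of 16 milk arrays. HBA in Cy5 reads 4594 to 24050 in PNCB, 3650 to 6848 in MSC and 870 to 10719 in MFG. The HBA spot of PFI goat 1 in MFG is dim in both channels.

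In blood the globins were among the most variable transcripts between goats. The highest HBB ratio in PNCB was 11.8-fold above the lowest, and its SD of 1.37 (log2) was larger than that of 99.9% of tested probes on the same 7 arrays, whose median SD was 0.29. HBA spanned 4.79-fold, and its SD of 0.81 was larger than that of 99.0% of probes. HBA in MSC spanned 2.96-fold, with an SD of 0.46 that exceeded 89.6% of probes.

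In blood, goats with more HBB tended to have more HBA, though not in strict order. Over 7 goats the log2 ratios of both probes in PNCB correlated at r = 0.898 (exact permutation p = 0.00833) and rho = 0.857 (exact p = 0.0238). As 1 of 9 relations computed, this did not pass after Benjamini-Hochberg adjustment (adjusted p = 0.075 and 0.107). With the 2 goats farthest from the HBB median left out, PFI goat 2 and PWI goat 3, r was 0.842 (n = 5), and with breed means removed it was 0.903. Without PFI goat 2 alone r was 0.765 (exact p = 0.0778). In MSC the correlation was -0.301 (exact p = 0.484, rho = 0.02) and in MFG 0.202 (exact p = 0.622, rho = -0.14), over 8 goats each. The MFG value was -0.559 without PWI goat 2 and the MSC value 0.123 without PFI goat 3. Whether the relation in blood differs from that in milk was not tested.

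**Figure D3:**
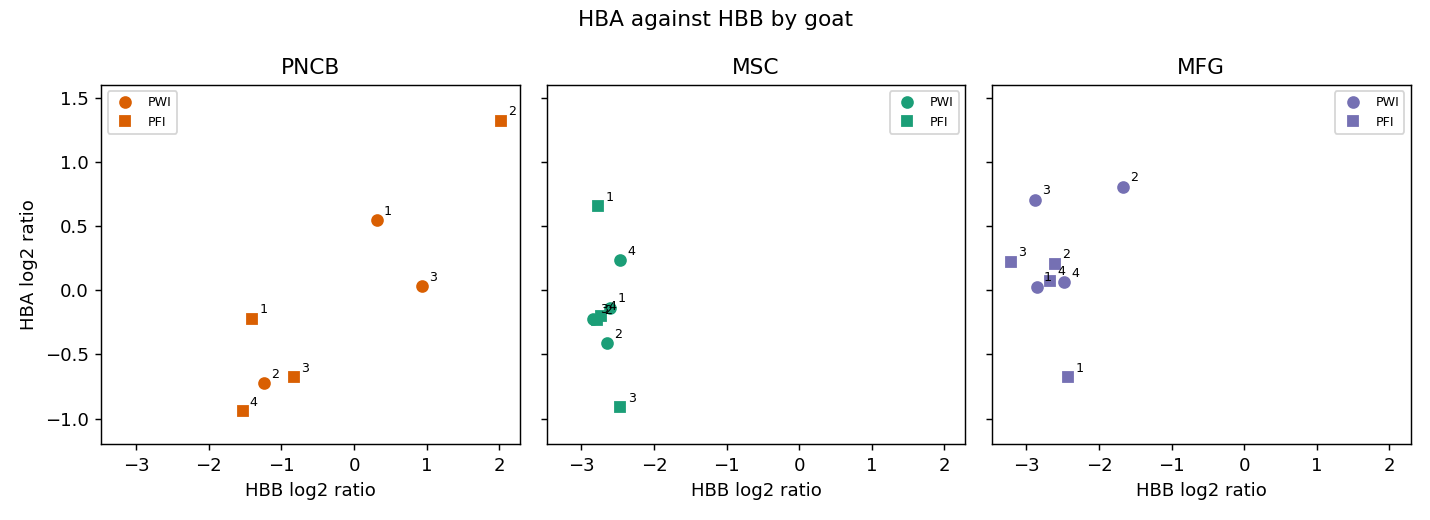
HBA against HBB log2 ratio (sample over reference) by goat in PNCB, MSC and MFG on common axes; numbers are goats, circles PWI and squares PFI. In PNCB both tend to rise together from PFI goat 4 to PFI goat 2 (r = 0.898, n = 7), while milk samples lie at HBB between -3.22 and -1.67 and HBA between -0.91 and 0.81.

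No relation between a goat's globin ratio in blood and in milk passed. HBB in PNCB correlated at -0.344 with HBB in MSC (exact permutation p = 0.448, n = 7) and at -0.288 with HBB in MFG (exact p = 0.544). Without the 2 goats farthest from the median these were 0.51, a turn of sign, and -0.406 (n = 5). For HBA these values were 0.194 (exact p = 0.682) and -0.0909 (exact p = 0.833), and without 2 goats 0.441 and -0.0645. PFI goat 2, with the highest blood ratios of both globins, had HBB ratios of -2.78 in MSC and -2.60 in MFG, where 1 MSC and 4 MFG samples were lower. Between the milk sources HBB correlated at -0.155 (exact p = 0.736, n = 8), and at 0.311 without 2 goats (n = 6). HBA in MSC and MFG ran in opposite order (r = -0.666, exact p = 0.07, rho = -0.857, exact p = 0.0107), which did not pass after adjustment over the 9 relations (adjusted p = 0.315 for r and 0.0964 for rho).

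The breeds did not separate at either globin. HBB was higher in PWI by 0.44 in PNCB (log2, 95% interval -1.46 to 2.34, limma adjusted p = 0.973), by 0.05 in MSC (-0.22 to 0.31, adjusted p = 0.993) and by 0.26 in MFG (-0.40 to 0.91, adjusted p = 0.667). These HBB values changed sign with the processing and none passed. HBA differed by 0.08 in PNCB (95% interval -1.08 to 1.24, adjusted p = 0.993), by 0.04 in MSC (-0.64 to 0.71, adjusted p = 0.998) and by 0.44 in MFG (-0.15 to 1.04, adjusted p = 0.543), PWI less PFI. Without PFI goat 1, whose HBA spot in MFG was dim in both channels, the last value was 0.23 (adjusted p = 0.718). All 6 pairs of groups overlapped. The lowest of the 6 exact permutation p-values was 0.286, for HBA in MFG, where 0.0286 was the smallest possible. Over the 3 sources PWI less PFI was 0.23 for HBB and 0.18 for HBA (adjusted p = 0.891 and 0.886). Breed calls were rare among all probes, at 0.0109% in PNCB, 0.0146% in MFG and 0.00366% for goat means. In MSC limma called 0 probes, with 1200 at an unadjusted p under 0.05. The interaction of breed and source gave adjusted p = 0.965 for HBB and 0.92 for HBA by limma's F-test, which called 0.0146% of probes. In blood the intervals are wide, since the goats of 1 breed differed by up to 11.8-fold, and each breed lay on its own slide, so that these cannot be told apart.

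Ordered by group mean, HBB ran from PNCB of PWI (0.0016) and PNCB of PFI (-0.44) to MFG of PWI (-2.47), MSC of PWI (-2.64), MSC of PFI (-2.68) and MFG of PFI (-2.73), as log2 ratios. Apart from the step between blood and milk, the spread of the goats overlapped between all neighbours in that order. For HBA the order ran from MFG of PWI (0.40) through MFG of PFI (-0.04), PNCB of PWI (-0.05), PNCB of PFI (-0.13) and MSC of PWI (-0.13) to MSC of PFI (-0.17), and the goats of all neighbours overlapped.

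Other probes were ranked by how closely their log2 ratios followed the globins, as a description over the 11555 probes measured on every array. The arrays share sources, so most of these correlations carry the difference between sources. Over the 23 arrays with globin values, HBB alone was followed most closely by NM_001192529 (r = 0.93), whose mean log2 ratio was 0.83 in blood, -1.36 in milk cells and -1.02 in fat globules, and by NM_001079646 (r = 0.919). No probe followed HBA as closely, and the highest r was 0.626, at NM_174760. The mean of both globins was followed by ENSBTAT00000050484 (r = 0.896) and NM_001076031 (r = 0.881), and run against by TC457173 (r = -0.889) and XM_866499 (r = -0.813). HBB and HBA themselves correlated at 0.286 over these arrays. Within PNCB, with breed means removed, NM_001101125 (r = 0.99) and NM_001075602 (r = 0.963) followed the globin mean over 7 arrays. Both were picked as the highest of 11555 probes over few arrays, where picking alone can give a high r, and were not tested. The files pair these accessions with no symbols, and 0 of 26748 accessions were found in the goat gene table, so genes and functions are not given.

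**Figure D4:**
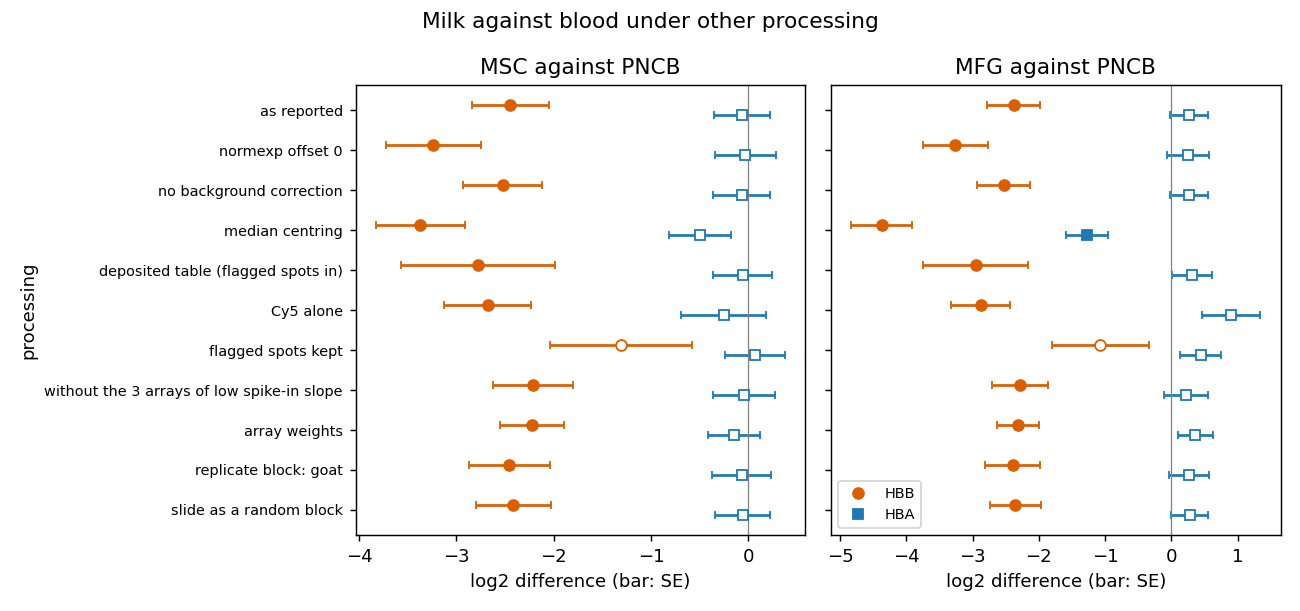
Log2 difference of HBB (circles) and HBA (squares) between MSC and PNCB (left) and between MFG and PNCB (right) under each way of processing, with the standard error as bar; filled symbols passed at an adjusted p under 0.05. HBB lies below 0 in each row and passes in each except flagged spots kept, while HBA passes for MFG with median centring alone.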

How the data were processed

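Per the file headers, the authors read the arrays with Agilent Feature Extraction 10.7.3.1, whose files hold, for each channel, the median intensity of a spot and of its local background without normalization, plus processed intensities and 0 or 1 flags. Other flag values, such as the outlier flags, were deposited by the authors as the scanner software set them. Values in the authors' deposited table are log10 ratios (Cy5 to Cy3), the same as in the scanner files (largest difference 0), and were turned to log2 here. No globin spot, nor any other, was saturated (0 spots).

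With R 4.3.3 and limma 3.58.1, spots with an outlier flag were left out, background was corrected by normexp (offset 50), and ratios were normalized by loess within each array with control spots at weight 0. Sources were compared in 1 limma fit (lmFit, eBayes) of 24 arrays with 6 group means and 1 spread shared by all groups. Breeds were compared on the 8 arrays of a source or on 1 mean per goat. P-values were adjusted by Benjamini-Hochberg over all tested probes, with a threshold of 0.05. The fit on simulated data of 27411 probes called 89% of 2-fold and 100% of 4-fold changes for MSC against PNCB, and 12 unchanged probes. These shares are over all simulated probes. In PNCB the SD exceeded that of 99.9% of probes for HBB and 99.0% for HBA, so the shares do not give the power for the globins. Single values were also tested by exact permutation over goats. The number of arrays limits the precision. Goats are separate animals. Samples of 1 number and breed are paired by the labels as 1 goat; deviations from group means correlated between -0.267 and 0.317 over 24 such pairs (median 0.02). The members, lists and tests were chosen with earlier results of these data known. Both chosen probes are named, and other globin probes were not searched for; other probes were taken by highest and lowest correlation with the globin mean, and those for each globin alone were added afterwards. The cell type marker lists were not run, as no table used here pairs the accessions with symbols.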

Additional observations from a re-analysis of the deposited data

Results flagged for a closer look

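In 30 groups of 4 values (log2 ratios and net intensities of both globins), 4 held a goat that lay apart from its 3 companions, while about 1.5 would do so by chance. Of these, 3 concern 1 spot, the HBA spot on the MFG array of PFI goat 1. Its net Cy5 signal was 870 against 7390 to 10662 in the other PFI goats, its net Cy3 signal was 1882.5 against 4731.5 to 5591, and its log2 ratio was -0.68 against 0.08 to 0.22. It carried no flag, and Cy3 held the same pool on every array. Without PFI goat 1, HBA in MFG less PNCB went from 0.27 to 0.36 (adjusted p = 0.309), MFG less MSC from 0.33 to 0.58 (adjusted p = 0.138), and PWI less PFI in MFG from 0.44 to 0.23 (adjusted p = 0.718). The other is the HBB ratio in MSC of PFI goat 3, at -2.46 against -2.78 to -2.73.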

How the results depend on the processing

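HBB was below its PNCB level in MSC and MFG under all 23 alternatives in each comparison (log2 differences from -3.37 to -1.31 in MSC and from -4.37 to -1.08 in MFG), and passed under 22 of them in each. Keeping flagged spots gave -1.31 and -1.08, where the flagged spot of PWI goat 4 in PNCB enters. The goat as replicate block gave -2.46 (adjusted p = 0.000144) and -2.40 (adjusted p = 0.00011), and the goat number as block turned HBA between breeds in PNCB to -0.19 (adjusted p = 0.999); the blocks changed no call. With 1 probe per gene, the brightest probe is the probe itself and was not run apart.

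For the gap of HBB less HBA against PNCB, keeping flagged spots gave -1.38 in MSC and -1.52 in MFG, neither past the threshold. Leaving out arrays of low spike-in slope gave -2.43 in MFG. Between the milk sources, leave-one-out gaps ran from -0.55 to -0.038. The gap of -0.55, without PFI goat 1 and its dim HBA spot, had an exact p of 0.0312 before any adjustment over tests. The main gap between the milk sources, -0.27, became -1.35 in Cy5 alone (exact p = 0.0547). HBA leave-one-out values ran from 0.031 to 0.48 for MFG against PNCB, from 0.16 to 0.58 for MFG against MSC and from 0.23 to 0.57 between breeds in MFG. HBA against PNCB reversed in MFG with median centring (-1.27) and in MSC with flagged spots kept (0.069); leave-one-out values in MSC ran from -0.22 to 0.19. HBA in MFG against MSC was -0.78 with median centring (adjusted p = 0.03), where the median of all probes lay at -0.61. It was 1.15 in Cy5 alone (adjusted p = 0.0275). HBB in MFG against MSC turned below 0 with median centring (-1.001, adjusted p = 0.0492, where the median of all probes lay at -0.61), no background correction (-0.0071), the deposited table (-0.17), Cy5 alone (-0.20), array weights (-0.094), PFI goats alone (-0.044), offset 0 (-0.025) and without arrays of low spike-in slope (-0.072), and ran from -0.075 to 0.18 with 1 goat left out.

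Breed differences of HBB reversed in MFG with Cy5 alone (-0.054), flagged spots kept or left out after the background fit (-0.11 each), array weights (-0.047) and without arrays of low spike-in slope (-0.00995); in MSC with the deposited table (-0.11), Cy5 alone (-0.033) and array weights (-0.015); in PNCB with the deposited table (-0.99), flagged spots kept (-1.08) and without arrays of low spike-in slope (-0.027); and over sources with the deposited table (-0.065) and flagged spots kept (-0.15). Leave-one-out values ran from -0.00995 to 0.40 in MFG, -0.012 to 0.12 in MSC and -0.027 to 1.26 in PNCB for HBB, and from -0.21 to 0.31 in MSC and -0.22 to 0.56 in PNCB for HBA, which was -0.22 in PNCB with flagged spots kept. None of these breed values passed.

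The correlation of HBB with HBA in PNCB was 0.664 in the deposited table (exact p = 0.0719) and 0.765 to 0.944 with 1 goat left out. In MFG it was -0.194 with median centring, -0.361 in Cy5 alone and -0.559 without arrays of low spike-in slope, and -0.559 to 0.497 with 1 goat left out. In MSC it was 0.149 with flagged spots kept, 0.153 with them left out after the background fit, and -0.636 to 0.123 with 1 goat left out. Where not stated, the cause of a change was not tested. Offset 0, low spike-in arrays and the settings for the gap were chosen after seeing the data.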
